A study of Fragaria x ananassa with 4 samples.

Results

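The enzymes of general phenylpropanoid metabolism and of lignin monomer synthesis were examined in ripening strawberry receptacle, the fleshy tissue that carries the achenes. The genes were taken from the descriptions printed on the arrays, which had to name, among other terms, phenylalanine ammonia-lyase, coumarate, cinnamate, cinnamoyl, cinnamyl or caffeoyl enzymes, eugenol, isoflavone reductase or mannitol dehydrogenase. Descriptions that also name chalcone, flavan or anthocyanin enzymes were left out (7 genes), as were 3 genes for an alcohol dehydrogenase, a eugenol synthase and a cinnamoyl-CoA reductase. This gave 101 genes of 35116 on the array, of which 31210 carry a description. Transcript levels were compared between 2 arrays of red, ripe receptacle (R) and 2 arrays of small green, unripe receptacle (G1), all of Fragaria × ananassa and each hybridised with Cy3-labelled total RNA of 1 sample. The labels name no treatment or transgene in either stage. The methods give the cultivar as Camarosa for field-grown plants, and as Elsanta for plants kept in a chamber for infiltration. The labels name a chamber and a greenhouse, so the cultivar of these samples is not settled. A description can catch a gene that does something else: in 76 of the 101 genes the best-scoring description was one of the enzymes sought, and in 25 it was another, such as an acyl-CoA ligase, an alcohol acyltransferase or a cytochrome P450.

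Phenylalanine ammonia-lyase (PAL) opens the pathway by removing ammonia from phenylalanine, cinnamate-4-hydroxylase (C4H) makes p-coumarate, and 4-coumarate:CoA ligase (4CL) activates it as a CoA ester. From that ester the carbon goes to flavonoids and anthocyanins, or to lignin precursors through shikimate and quinate esters made by hydroxycinnamoyl transferases (HCT), hydroxylation by coumarate hydroxylase (C3H) and methylation, in which caffeoyl-CoA O-methyltransferases (CCoAOMT) take part. Cinnamoyl-CoA reductase (CCR) and cinnamyl alcohol dehydrogenase (CAD) complete the monolignols, the alcohols that are built into lignin, and eugenol synthase turns an ester of one of them into the volatile eugenol, a part of strawberry aroma.

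The methods describe pools of fruits without achenes, and the sample descriptions speak of RNA from independent fruits. It is not stated that the arrays of a stage hold separate pools, and the p-values may then cover technical variation alone. Across genes, which are not independent replicates, arrays of a stage correlated at 0.994 to 0.995 and arrays of different stages at 0.818 to 0.820. Red replicate 1 was on a slide of its own, and the other arrays shared a slide. Levels are log2 signals from which the array's own 75th percentile was subtracted, and a level is comparable between arrays but not between probes. Chlorophyll a/b binding protein genes, which mark green tissue, were lower in red in 14 of 14 tested. The ripening genes for FaMYB10, FaQR, FaPG1 and FaAAT1 were higher in red in 4 of 4. The study had selected these 4 genes as up-regulated in red receptacle on the same arrays, so their count is no check of the stages. Genes described as oleosins, seed storage globulins or late embryogenesis abundant proteins were taken as marks of seeds and achenes, and how specific they are was not tested. They were higher in red in 30 of 36 tested and lower in 4, beside 37.8% higher and 35.1% lower among all genes tested. The log2 of their mean signal was 2.24 to 2.29 on the red arrays and 0.82 to 0.92 on the green arrays. The highest levels among them were those of late embryogenesis abundant genes. Of the seed and achene genes higher in red, gene13470, gene06490 and gene16469 were not well above background on either green array. The part of achene RNA in the results below was not tested.

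Most of the tested genes of the pathway differed between the stages, more often with the higher level in red receptacle. In the deposited RMA values, the share higher in red among genes that passed was not above that of all genes. Of the 101 genes, 81 were detected well above background on 2 or more arrays and could be tested. Of these, 48 were higher (59.3%) and 24 were lower (29.6%) in red receptacle at an adjusted p under 0.05 in limma, beside 37.8% higher and 35.1% lower among all 24975 genes tested. Their median log2 fold change was 0.70, and that of all genes tested was 0.04. Changes of 2-fold or more were found in 35 genes that were higher and 23 that were lower, beside 17.4% higher and 21.5% lower among all genes. Genes that were dim in a stage were then set at the bound described below. So counted, 12 genes of the pathway were at least 10-fold higher and 16 at least 10-fold lower. Among all genes counted the same way, the shares were 2.63% and 5.53%. A gene that was dim in a stage could pass the filter only through the other stage and so had to differ. Among the 65 genes well above background on every array, 46 were higher (70.8%) and 15 lower (23.1%), beside 38.6% and 33.8% of all genes that met the same condition. Without red replicate 1, the array on its own slide, the median log2 fold change was 0.75 over the 81 genes and 0.03 over all genes. In whole tissue, fewer cells of a type and less RNA per cell cannot be told apart.

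By family, the reductases and dehydrogenases at the end of the pathway were higher in red in 12 of 14 genes each, whereas the hydroxycinnamoyl transferases were lower in 12 of 18, 7 of them genes that passed the filter through the green arrays alone. On all 4 arrays well above background were 9 transferases, of which 5 were lower and 2 higher, 13 CCR genes, of which 12 were higher and 1 lower, and 12 CAD genes, of which 11 were higher and 1 lower. Among all genes tested, 37.8% were higher and 35.1% lower, and among those well above background on every array 38.6% and 33.8%. The difference between families was not tested. The ligases and the eugenol synthase and isoflavone reductase relatives split between both directions.

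**Figure D1:**
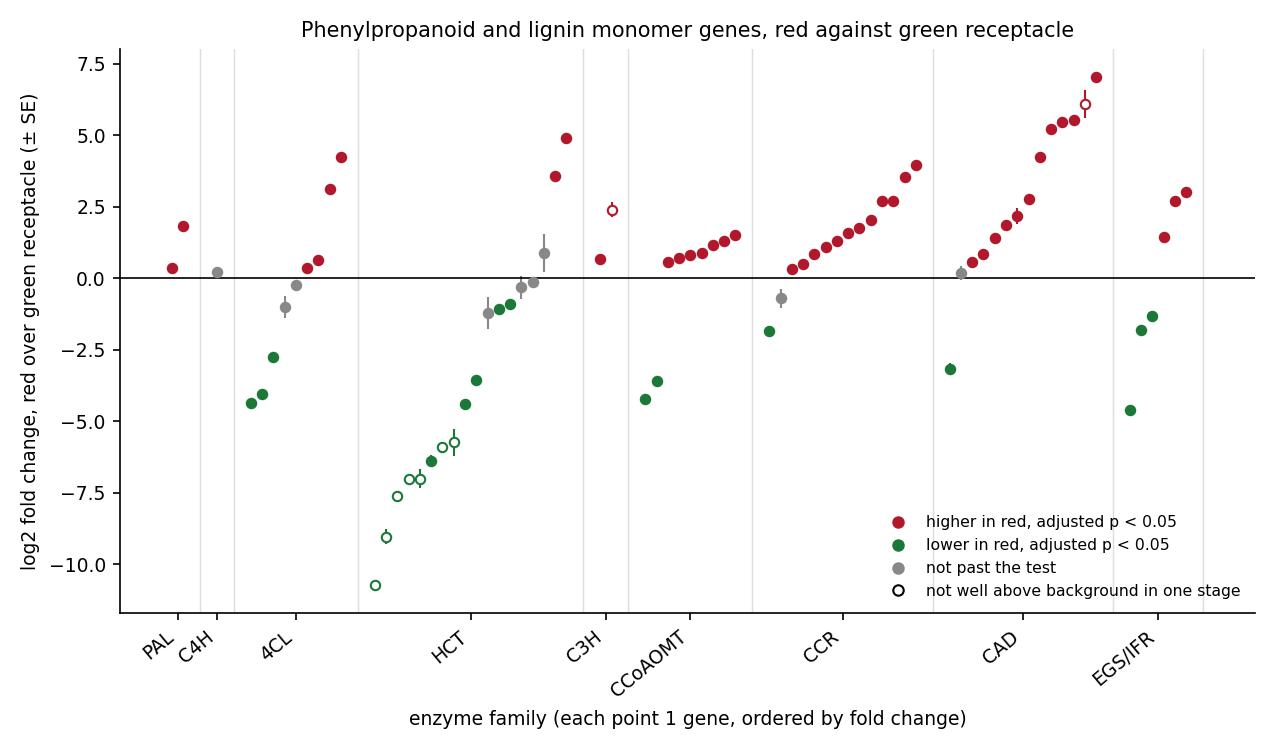
The log2 fold change of red over green receptacle with its SE (vertical axis) is plotted for 75 of the 81 tested genes, grouped by enzyme family (horizontal axis). Red points were higher and green points lower in red receptacle at an adjusted p under 0.05, grey points did not pass, and open points were not well above background on either array of a stage. The CCR and CAD genes lie mostly above 0, and the HCT genes reach down to -10.71.

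Both PAL genes were higher in red receptacle. The gene described as phenylalanine ammonia-lyase 1, gene23261, had levels of 6.98 and 6.90 on the red arrays and of 5.13 and 5.13 on the green arrays. The stages were well apart, and the level was 3.51-fold higher in red (log2 fold change 1.81 ± 0.07 SE, adjusted p = 0.000147 from limma). The second PAL gene, gene09753, had levels of 5.05 and 5.02 in red and of 4.65 and 4.69 in green. The arrays did not overlap, but the difference was small (log2 fold change 0.36 ± 0.06 SE, adjusted p = 0.00955), and with quantile normalization it did not pass (adjusted p = 0.120). Nor did it pass without red replicate 1 (adjusted p = 0.0626) or without red replicate 2 (adjusted p = 0.0519).

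The C4H gene, gene28093, had levels of 5.19 and 5.36 in red and of 4.96 and 5.13 in green. The values of the stages lay next to each other, and the log2 fold change of 0.23 ± 0.11 SE did not pass the test (adjusted p = 0.129). In the RMA values deposited for the same arrays it passed (log2 fold change 0.69, adjusted p = 0.0073), where the median of all genes stood at 0.51, and it also passed with the normexp correction (log2 fold change 0.27, adjusted p = 0.0326) and with an intensity trend (adjusted p = 0.0456). With quantile normalization its log2 fold change was -0.026.

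Of 10 genes of the 4CL family 9 were tested, 4 were higher, 3 were lower and 2 did not pass. The 3 genes best described as 4-coumarate:CoA ligases were not higher in red. The one described as number 1 of the ligases, gene15877, had levels of -4.02 and -4.36 in red and of 0.14 and 0.20 in green. The stages were far apart, and its transcript fell by 4.36 ± 0.14 SE on the log2 scale (adjusted p = 0.000103). The isoform described as number 3, gene12577, had levels of -1.02 and -0.89 in red and of 3.10 and 3.07 in green. It fell by 4.04 ± 0.08 SE on the log2 scale, again with no overlap. The isoform described as number 2, gene05255, had levels of 1.58 and 1.47 in red and of 1.92 and 1.62 in green. Its difference was within the spread of the green arrays (log2 fold change -0.24 ± 0.13 SE, adjusted p = 0.172), although it passed without green replicate 2 (log2 fold change -0.39, adjusted p = 0.046). In the deposited RMA values its sign turned (log2 fold change 0.22) and it did not pass.

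The other ligases are described first as acyl-CoA ligases, enzymes that may act on other acids. The largest rise among them was that of gene09603, with levels of 7.25 and 7.34 in red and of 3.11 and 2.98 in green. This is 19.0-fold higher in red (log2 fold change 4.25 ± 0.08 SE, adjusted p = 4.54e-05). The level of gene13673 was 8.72-fold higher in red, from -4.00 and -4.20 on the green arrays to -0.99 and -0.96 on the red arrays. A smaller rise was measured for gene06385 (log2 fold change 0.63 ± 0.07 SE), and gene08621 fell by 2.74 ± 0.06 SE on the log2 scale. Of the remaining acyl-CoA ligases, gene28898 passed with a log2 fold change of 0.36, but not without red replicate 1, red replicate 2 or green replicate 1 (adjusted p of 0.0511, 0.0803 and 0.0574). For gene07129 the log2 fold change of -1.01 ± 0.37 SE did not pass (adjusted p = 0.074), and without red replicate 1 it did (log2 fold change -1.37, adjusted p = 0.0382). The last of them was not well above background on any array.

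**Figure D2:**
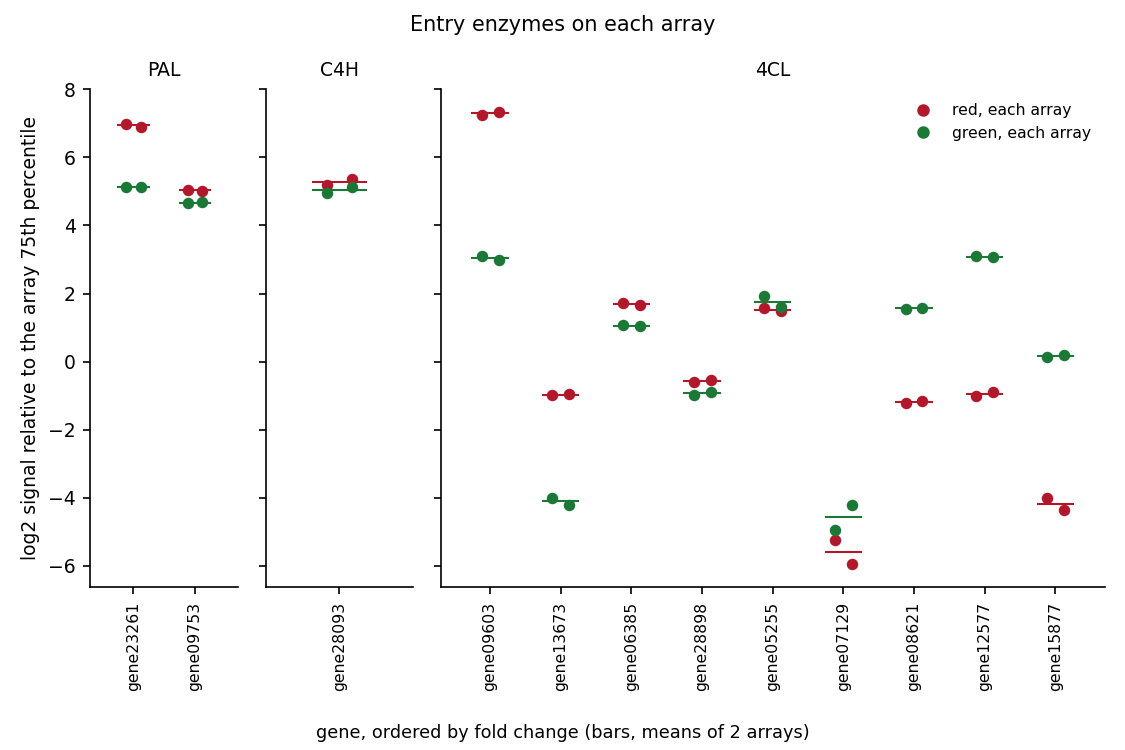
The level of each tested PAL, C4H and 4CL gene on each array (vertical axis, log2 signal relative to the 75th percentile of the array) is shown with a bar at the mean of 2 arrays, red points for red and green points for green receptacle. The order within a family is by fold change, and the stages lie close together for gene09753, gene28093 and gene05255 and far apart for gene09603, gene12577 and gene15877.

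The hydroxycinnamoyl transferases and their relatives of the BAHD acyltransferases, which move acyl groups from CoA to an acceptor, held the largest falls. Of 24 genes 18 were tested, and 2 were higher, 12 were lower and 4 did not pass. Of the 13 tested genes whose best description was a hydroxycinnamoyl transferase, 0 were higher and 9 were lower in red receptacle, 6 of them with no red array well above background. Of the 5 with every array well above background, 3 were lower and 2 did not pass. In both genes that were higher the best description was an alcohol acyltransferase.

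The largest fall was that of gene34068, described as a hydroxycinnamoyl-CoA shikimate/quinate transferase, with levels of -7.97 and -7.83 in red and of 2.75 and 2.87 in green. The red arrays were not well above background, and by a bound the transcript was at least 909-fold lower in red receptacle. With the normexp correction its log2 fold change was -5.99. A bound of this kind sets the green level against the weakest signal still well above background on the red arrays, or against the gene's own signal where that was higher. The limit of a single probe can lie above that weakest signal, as for gene34065, so the true difference may be smaller than the bound. Genes of this kind passed the filter through the green arrays alone and had to differ, so no p-value is given for them. For gene34065, with the same description, the levels were -6.27 and -5.53 in red, not well above background, and 3.10 and 3.15 in green. Its own red signals, which lay above that weakest signal, put the transcript 523-fold lower in red receptacle, and this is not a lower limit. With the normexp correction its log2 fold change was -6.01. Both genes were thus well above background in green receptacle and in neither red sample.

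An acyltransferase with an alcohol acyltransferase as its best description, gene28057, also fell out of the measured range. Its levels were -0.42 and -0.51 in green and -8.07 and -8.08 in red, where it was not well above background. By the same bound it was at least 93.8-fold lower, and with the normexp correction its log2 fold change was -3.10. Another 4 transferases, singled out after their values were seen, were likewise well above background in green receptacle and not on either red array. By the same bound, gene06484 was at least 83.5-fold lower in red, gene23807 at least 66.1-fold, gene34032 at least 35.5-fold and gene34602 at least 30.9-fold. The transcript of gene01943, a shikimate/quinate transferase that was also singled out afterwards, remained above background in red, with levels of -5.42 and -5.93 there and of 0.73 and 0.70 in green. It was 83.8-fold lower in red (log2 fold change -6.39 ± 0.19 SE, adjusted p = 9.27e-05). Its red levels lay near background, which makes the fold imprecise.

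A shikimate/quinate transferase did not follow these. The levels of gene15811 were 0.67 and 0.72 in red and 0.86 and 0.79 in green, close together in both stages (log2 fold change -0.13 ± 0.07 SE, adjusted p = 0.166). In the deposited RMA values the sign turned (log2 fold change 0.33, adjusted p = 0.0206), by less than the median of all genes there, 0.51. The other 3 transferases that did not pass lay near background, and their log2 fold changes were 0.88 ± 0.66 SE for gene23879, -0.32 ± 0.40 SE for gene02201 and -1.22 ± 0.56 SE for gene23809. Without green replicate 2 gene23879 passed (log2 fold change 1.79, adjusted p = 0.00206), and without red replicate 2 gene02201 did (log2 fold change -0.83, adjusted p = 0.0349). The 2 transferases that rose were gene07931 and gene22294. The gene known as FaAAT2, gene07931, makes esters of the fruit aroma, and its levels were 5.20 and 5.15 in red and 0.38 and 0.21 in green, 29.6-fold higher (adjusted p = 4.25e-05). For gene22294 the levels were 2.05 and 1.93 in red and -1.50 and -1.64 in green, 11.8-fold higher (adjusted p = 6.74e-05).

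**Figure D3:**
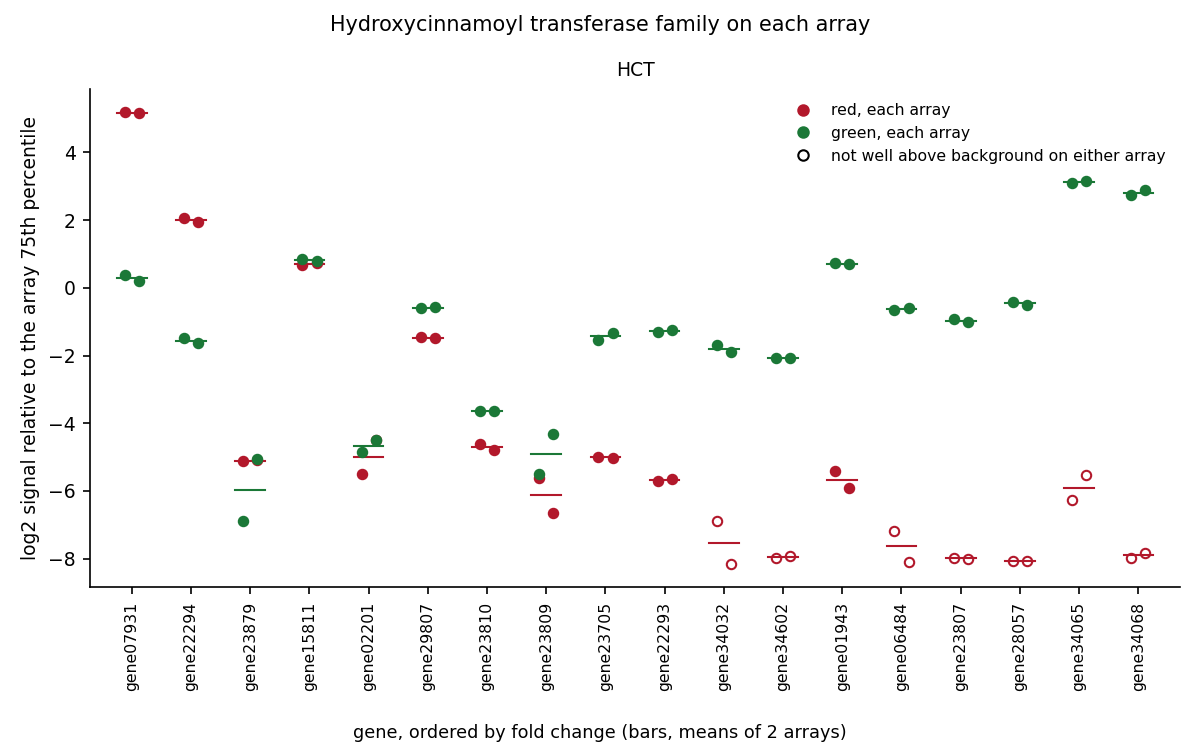
The level of each of the 18 tested transferase genes on each array (vertical axis, log2 signal relative to the 75th percentile of the array) is shown with a bar at the mean of 2 arrays, ordered by fold change. Open points were not well above background on either array of that stage. Both red points lie above both green points only for gene07931 and gene22294, and 7 genes at the right have open red points.

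The hydroxylase step could hardly be read. Of 3 genes that name a coumarate hydroxylase, the one with this as its best description, gene25986, was not well above background on any array. The other two are described first as cytochromes P450, the large family of oxygenases to which the hydroxylase belongs. For gene34454 the levels were -4.74 and -4.91 in red and -7.57 and -6.86 in green, where it was not well above background. It passed the filter through the red arrays alone, and by the same kind of bound as above it was at least 3.39-fold higher in red. For gene17417 the levels were -3.57 and -3.48 in red and -4.22 and -4.15 in green (log2 fold change 0.66 ± 0.07 SE, adjusted p = 0.00241). With the normexp background correction neither passed and both signs turned, to -0.15 and -0.10.

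Caffeoyl-CoA O-methyltransferases, which methylate the caffeoyl ester on the way to coniferyl alcohol, showed small rises and a pair of larger falls. Of 12 genes 9 were tested, 7 were higher and 2 were lower in red receptacle, and with the normexp correction 5 were higher and 2 lower. The levels of gene02148 were 4.93 and 5.04 in red and 4.23 and 4.34 in green (log2 fold change 0.70 ± 0.08 SE, adjusted p = 0.00317). The stages did not overlap, but the difference was under 2-fold. For gene11384 the levels were 0.95 and 1.03 in red and -0.31 and -0.31 in green, 2.46-fold higher (adjusted p = 0.000323). The largest rise, 2.86-fold, was that of gene11385, whose best description is a DNA-directed RNA polymerase. The rise of gene11386 (log2 fold change 1.16 ± 0.13 SE) turned to -0.091 with the normexp correction. The remaining 3 genes that were higher had log2 fold changes of 0.57, 0.79 and 0.90, and that of 0.79, for gene07164, was -0.072 with the normexp correction.

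Both genes that fell were well above background in red. For gene29535 the levels were -4.32 and -4.55 in red and -0.24 and -0.20 in green, 18.5-fold lower in red (log2 fold change -4.21 ± 0.11 SE, adjusted p = 6.54e-05). For gene12150 the levels were -3.30 and -3.37 in red and 0.35 and 0.19 in green, 12.2-fold lower (log2 fold change -3.61 ± 0.09 SE, adjusted p = 6.22e-05). No array of a stage came near those of the other.

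Cinnamoyl-CoA reductases, which commit the CoA esters to monolignols, were nearly all higher in red receptacle. Of 16 genes 14 were tested, 12 were higher, 1 was lower and 1 did not pass, with a median log2 fold change of 1.44, and 9 of those higher were so by at least 2-fold. The level of gene29483 was 3.78 and 3.75 in red and -0.12 and -0.26 in green, 15.5-fold higher (log2 fold change 3.95 ± 0.08 SE, adjusted p = 4.70e-05). The level of gene03747 was 0.84 and 0.78 in red and -2.71 and -2.73 in green, 11.6-fold higher (log2 fold change 3.53 ± 0.07 SE, adjusted p = 4.25e-05). These were the clearest separations in the family.

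For gene15845 the levels were 6.36 and 6.58 in red and 3.71 and 3.85 in green, 6.45-fold higher (adjusted p = 0.000186). For gene14712 they were 3.70 and 3.63 in red and 2.17 and 2.00 in green, 2.99-fold higher (adjusted p = 0.000388). The only fall was that of gene31464, with levels of -0.63 and -0.65 in red and of 1.22 and 1.20 in green. It was 3.59-fold lower in red (log2 fold change -1.85 ± 0.06 SE, adjusted p = 0.000118). The gene that did not pass, gene29344, singled out afterwards, lay near background, with a log2 fold change of -0.71 ± 0.34 SE and an adjusted p of 0.132, and it passed without green replicate 2 (log2 fold change -1.16, adjusted p = 0.00658). The smallest rises of the family, those of gene02203 (log2 fold change 0.32) and gene10343 (log2 fold change 0.50), no longer passed when either red replicate was left out (adjusted p of 0.081 to 0.127), and gene02203 did not pass without green replicate 2 either (adjusted p = 0.0946).

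Cinnamyl alcohol dehydrogenases, which reduce the aldehydes to monolignols, held the largest rises. Of 16 genes, which include those described as mannitol dehydrogenases, relatives of these enzymes, 14 were tested, 12 were higher, 1 was lower and 1 did not pass. The median log2 fold change was 2.48, and 10 of the genes that were higher were so by at least 2-fold. The gene with the largest rise, gene09243, is described as a probable mannitol dehydrogenase, and its levels, means of 2 probes, were 6.27 and 6.30 in red and -0.80 and -0.70 in green. It was 131-fold higher in red receptacle (log2 fold change 7.03 ± 0.07 SE, adjusted p = 3.11e-05).

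The level of gene00496 was -0.77 and -0.75 in red. On the green arrays its levels of -6.17 and -7.53 were not well above background, so it passed the filter through the red arrays alone. By the same kind of bound as above, gene00496 was at least 46.4-fold higher in red. The level of gene20697 was 3.97 and 3.96 in red and -1.64 and -1.47 in green, 45.7-fold higher (adjusted p = 3.55e-05). For each of these genes the red arrays lay close together and far above the green arrays.

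Rises over 10-fold were also measured for gene20698, gene08569 and gene00494, chosen after their values were seen, with 43.5-fold, 37.3-fold and 18.6-fold higher levels in red. Several of these genes carry the same description and may be close copies of each other, and whether a probe also binds the transcript of another copy was not tested, so the rises may not be separate. The dehydrogenases gene26302 and gene24967 rose less. The levels of gene26302 were 6.46 and 6.47 in red and 5.66 and 5.56 in green (log2 fold change 0.85 ± 0.07 SE, adjusted p = 0.00113). The levels of gene24967 were 4.61 and 4.60 in red and 3.16 and 3.22 in green (log2 fold change 1.41 ± 0.07 SE, adjusted p = 0.000243). The only fall was that of gene17846, with levels of -1.73 and -1.24 in red and of 1.80 and 1.59 in green, 9.05-fold lower in red (log2 fold change -3.18 ± 0.20 SE, adjusted p = 0.000539).

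**Figure D4:**
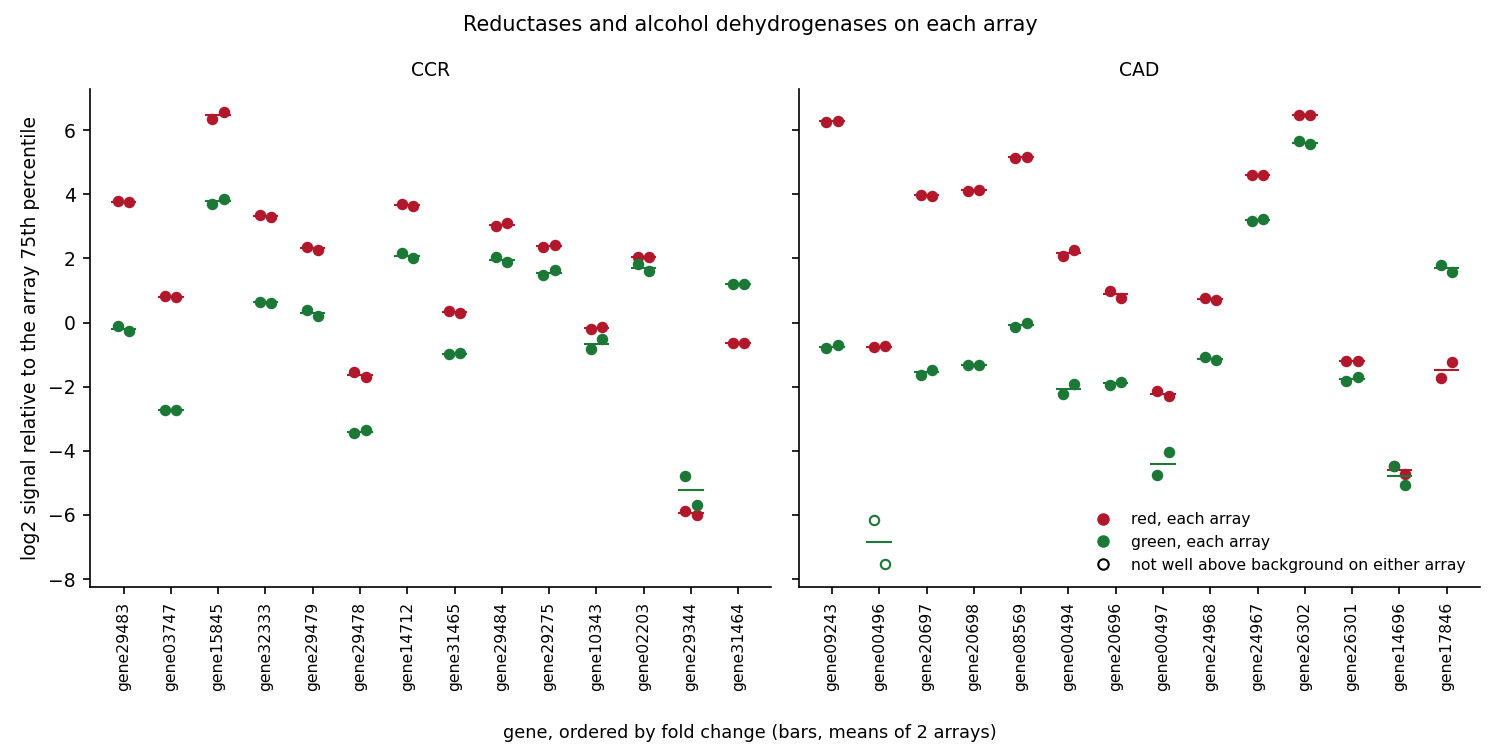
The level of each of the 14 tested CCR and 14 tested CAD genes on each array (vertical axis, log2 signal relative to the 75th percentile of the array) is shown with a bar at the mean of 2 arrays, ordered by fold change within a family. Open points were not well above background on either array of that stage. The red points lie above the green points except for gene29344, gene14696, gene31464 and gene17846 on the right.

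The eugenol synthase and isoflavone reductase relatives, reductases that act on phenylpropanoid alcohols, lignans and isoflavonoids, split evenly. Of 8 genes 6 were tested, 3 were higher and 3 were lower in red receptacle. The level of gene25258, described as an isoflavone reductase related protein, was 5.26 and 5.23 in red and 2.54 and 2.52 in green, 6.55-fold higher (adjusted p = 5.65e-05). A phenylcoumaran benzylic ether reductase-like gene, gene25257, had levels of 2.35 and 2.28 in red and of -0.78 and -0.62 in green, 8.08-fold higher (adjusted p = 8.66e-05). The third gene that rose was gene13540 (log2 fold change 1.43 ± 0.07 SE).

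The largest fall was that of gene15165, described as an allergenic isoflavone reductase-like protein, with levels of -1.77 and -1.95 in red and of 2.66 and 2.81 in green. It was 24.1-fold lower in red receptacle (log2 fold change -4.59 ± 0.10 SE, adjusted p = 5.47e-05). The other falls were those of gene13541, described as a pinoresinol-lariciresinol reductase, an enzyme of lignan synthesis (log2 fold change -1.82 ± 0.09 SE), and of gene25261 (log2 fold change -1.33 ± 0.08 SE). The gene described as isoeugenol synthase, gene14701, and the one eugenol O-methyltransferase, gene18605, were not well above background on any array.

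The 20 genes that were not tested were well above background on 1 array at most. They included 6 transferases, 3 caffeoyl-CoA O-methyltransferases, 2 each of the CCR, CAD and eugenol synthase families, and 1 each of the 4CL, C3H and eugenol O-methyltransferase genes.

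The genes around the pathway were counted from lists made by the same kind of text search, outside the 101 genes. For comparison, 37.8% of all genes tested were higher and 35.1% lower in red receptacle. The dirigent and lignan genes, whose proteins steer the coupling of monolignol radicals or reduce the lignans formed, were lower in red receptacle in 12 of 12 tested of 18, and 4 of these were not well above background in red. With those at their bound the median log2 fold change was -3.04. Among the genes well above background on every array, the dirigent-like gene34041 fell by 4.38 ± 0.07 SE on the log2 scale and gene34044 fell by 3.25 ± 0.06 SE. The genes that supply phenylalanine and shikimate numbered 20, of which 17 were tested. Of these, 5 were higher and 9 were lower, and in the deposited RMA values 7 were higher and 6 lower. Here gene04451 passed the filter through the red arrays alone and gene04664 through the green arrays alone. The putative shikimate dehydrogenase gene22236 fell by 4.86 ± 0.16 SE on the log2 scale, and the aldolase gene10771, which opens the shikimate pathway, rose by 0.93 ± 0.07 SE. A list searched for ferulate-5-hydroxylase and coumaroyl ester hydroxylase had 15 genes. In each, the best matching term was a ferulate 5-hydroxylase, which need not be the best description of the gene. Of these genes 9 were tested, 6 were higher and 3 lower, and with the normexp correction 4 were higher and 4 lower. Among those higher, gene22708 and gene22707 passed the filter through the red arrays alone and had to differ. Genes that mark lignified vascular tissue, which contains much of a fruit's lignin, were higher in 7 and lower in 5 of 14 tested. With the normexp correction they were higher in 4 and lower in 6. Here gene12525 and gene11018 passed the filter through the red arrays alone and gene04236 through the green arrays alone. The log2 of their mean signal was 3.42 to 3.43 in red and 2.91 to 2.95 in green. The part of vascular tissue in the results was not tested.

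The values hold a scale choice that bears on small differences. In the RMA values deposited for the same arrays, all genes together had a median log2 fold change of 0.51 and the 81 genes one of 1.19, which is 0.68 above the median of all genes, compared with 0.66 here. With these values 50 genes of the pathway were higher and 24 lower, and 72 of the 72 calls made here were made again in the same direction. Of the genes that passed the test, the share higher in red receptacle was 66.7% in the pathway and 51.9% among all genes here, 67.6% and 68.8% in the RMA values, and 60.3% and 39.9% with the normexp correction. In the RMA values the share in the pathway, among genes that passed, was thus not above that of all genes. Counted over the genes tested, 50 of 81 were higher there in the pathway and 13176 of 24975 among all genes.

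**Figure D5:**
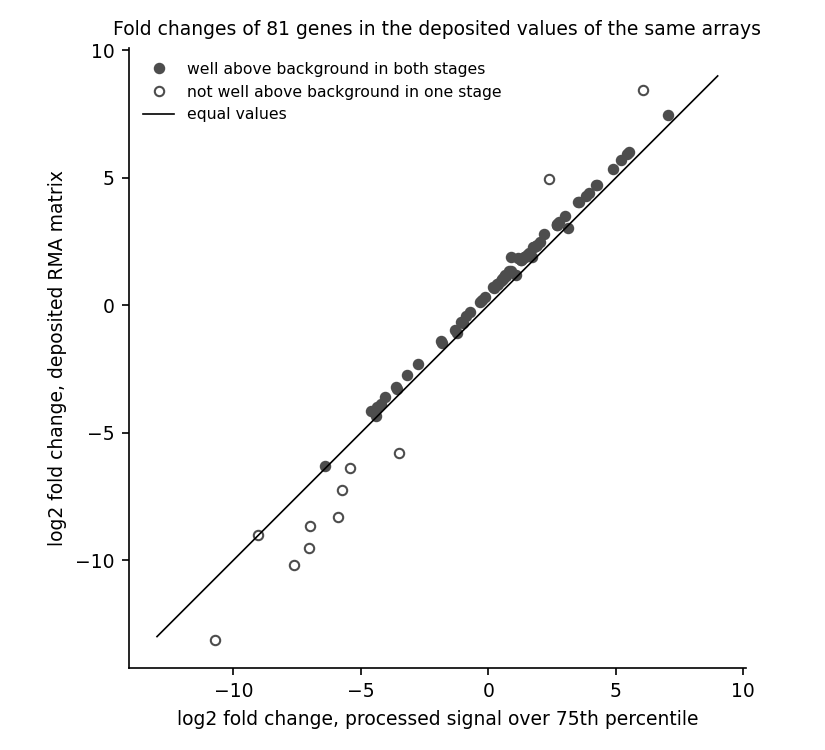
The log2 fold change of each of the 81 genes in the deposited RMA values (vertical axis) is plotted against that from the processed signal relative to the 75th percentile (horizontal axis), with a line at equal values. Filled points lie mainly above the line, by about the 0.51 that separates the medians of all genes. Open points, not well above background on either array of a stage, lie farther from it on either side, except gene34065 at -9.03 and -9.01.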

How the data were processed

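Receptacle RNA of 2 red and 2 green samples was measured on 1-colour arrays. Per the file headers, Agilent Feature Extraction 10.7.3.1 had read the scans, and the deposited intensity of a spot is a background-subtracted processed signal on a linear scale, with no scaling between arrays. Deposited with it was the authors' intensity matrix of the same arrays made by RMA, on a linear scale, with the gene descriptions.

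The processed signal was taken as log2 minus the 75th percentile of the array (signals of 671 and 509 on the red and of 390 and 347 on the green arrays). Control spots and 84 to 255 spots per array marked as uneven or outlying were left out, replicate spots were averaged, and a probe was kept where it stood well above background on 2 or more of 4 arrays (23658 to 24373 probes per array were well above background). Kept probes of a gene were averaged. A missing value on an array removed 40 genes, none of them of the pathway, and 0 spots were saturated. The 24975 genes were compared in R 4.3.3 with limma 3.58.1 (lmFit, eBayes), without trend or block, two-sided, with Benjamini-Hochberg adjustment over all genes (2 residual and 1.81 prior degrees of freedom, prior SD 0.0893). The number of arrays limits the precision.

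Genes were assigned to families by the best-scoring description among the terms sought. Named are, in each family, the 3 largest rises and falls past the test, the 2 highest mean levels and every gene of a family of 4 or fewer. Other genes named were chosen once their values had been seen. The genes and lists were chosen with earlier results of these data known. Same-numbered samples share only a number. Alternatives were the RMA values, quantile normalization, normexp with an offset of 50 on the median spot signal, other filters on dim probes, the median over probes, an intensity trend, the methods' t-test, other thresholds, a block for replicate or slide, and each sample left out in turn. The methods describe field-grown plants, and the labels a chamber and a greenhouse. No sequences were used here, and silenced receptacles were not analysed here. The values of 1 family are not reported here.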

Additional observations from a re-analysis of the deposited data

How the results depend on the processing

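The counts of pathway genes higher and lower in red receptacle (48 and 24) stayed within 1.5 times under all alternatives except that 15 were lower when probes had to be well above background on all 4 arrays, where 65 genes were tested, and 21 were higher at the study's threshold (log2 fold change beyond 2 and unadjusted p of 0.05 or less). Of all genes, 4353 were higher and 5381 lower at 2-fold and 1650 and 2985 at the study's threshold. The median log2 fold change of the pathway genes was 1.19 in the RMA values, 0.41 with the normexp correction, 0.32 without a filter (101 genes), 1.10 with the stricter filter and 0.75 with the slide as a block. Leaving out each array gave a median of 0.64 to 0.76 for the pathway genes and of 0.02 to 0.05 for all genes. Where a stage is left with 1 array, its spread is taken from the other stage. The methods' t-test gave 46 higher and 24 lower, both at an unadjusted p of 0.05 or less and after Benjamini-Hochberg adjustment. No fold limit was set there, and the counts at the study's threshold used the limma p.

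Same-numbered samples did not deviate together (correlation 0.078), and with the replicate block 48 pathway genes were higher and 24 lower, and 9465 and 8844 of all genes. Of the genes that passed, signs turned with the normexp correction for gene34454 (-0.15), gene17417 (-0.10), gene11386 (-0.091) and gene07164 (-0.072), none of which passed there. Genes that had not passed did so with the other sign in the case of gene15811 in the RMA values (0.33) and gene14696 with the normexp correction (-0.39). Signs of gene02201, gene05255, gene23879, gene28093 and gene14696 also turned under alternatives where they did not pass. The cause was not tested. Of 775 recomputed values for the 46 genes named by rule, 741 kept their side of the threshold and, where the gene passed, their direction. These values are not separate checks. The slide block gave the same values as leaving out red replicate 1. For genes with a single probe, the filters and the median over probes could not change the fold. Dim genes limit the folds: those not well above background in a stage have only a bound, and the true difference may be smaller.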

Other observations

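Some genes of the pathway with neighbouring ID numbers and the same kind of description went in opposite directions between the stages. These pairs were chosen after their values were seen, and where the genes lie in the genome was not looked up. The reductases gene31464 and gene31465, both described as cinnamoyl-CoA reductases, had log2 fold changes of -1.85 ± 0.06 and 1.29 ± 0.07 SE. The alcohol acyltransferase relatives gene22293 and gene22294 had log2 fold changes of -4.40 ± 0.07 and 3.56 ± 0.09 SE. The isoflavone reductase relatives gene13540 and gene13541 had log2 fold changes of 1.43 ± 0.07 and -1.82 ± 0.09 SE. Each of these genes was well above background on every array, and the arrays of its stages did not overlap. The difference between the genes of a pair was not tested.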
